A study of Mus musculus with 32 samples.

Results

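The hormone receptor axis of the mammary gland was followed through 7 genes, out of 24454 gene IDs counted in laser-captured regions of mouse mammary tumours. The list holds hormone receptors and genes of hormone-sensing luminal cells: the receptors Esr1, Pgr and Prlr, the transcription factor Foxa1, the oestrogen-induced gene Greb1, and the paracrine ligands Tnfsf11 and Wnt4. All 7 were found in the count table by their NCBI gene ID. Of these, 6 passed the filter on low counts and were tested, and Tnfsf11 did not.

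Regions came from female mice of the genotype MMTV-PyMT; R26-CBW; K8-CreERT2, in which the mouse mammary tumour virus promoter drives the polyoma middle T oncogene in mammary epithelium, so that normal gland was also taken from animals bearing tumours. Tamoxifen (5 mg, at 5 weeks of age) had activated a Cre recombinase expressed from the keratin 8 promoter, which switched on 1 of several fluorescent colours of the Confetti reporter in luminal cells and their progeny. Every group carried the oncogene and received tamoxifen, itself a ligand of the oestrogen receptor, so no untreated animal stands beside them. The 32 libraries were 3 of normal gland, 5 of hyperplasia, 8 of adenoma, 9 of carcinoma and 7 of lung metastasis, each of a patch of 1 colour except normal 28 and normal 30, which the labels give as pools of several places. Normal 18 carries the position tumour core, and the protocol says that normal patches were pooled to gain material. Hyperplasia had 3 regions in the core, 1 at the border and 1 outside the tumour. Adenoma had 3, 3 and 2, and carcinoma had 6 in the core and 3 at the border. Metastases lay at the lung border (4) or in the lung centre (3). The series states n = 3 and does not tie regions to animals. Some regions therefore share an animal. The p-values take regions as independent, so they do not hold for animals and may be too small. Nothing says how many animals a group holds, so the p-values measure only the spread between these regions, which may be technical. Age at collection is not given, and collection followed the tumours' reaching the largest size permitted.

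Oestrogen and progesterone act on a minority of luminal cells, the hormone-sensing cells, which express ESR1 and PGR together with FOXA1, a pioneer factor that opens chromatin for the oestrogen receptor. Activated ESR1 induces PGR and GREB1, and progesterone acting through PGR induces the secreted signals RANKL (Tnfsf11) and WNT4, which reach neighbouring receptor-negative and basal cells. Prolactin acts through PRLR and the transcription factor STAT5 and drives the alveolar programme of milk production, so Prlr is also used by the receptor-negative luminal lineage marked by Elf5.

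RefSeq (GRCm38.p6) holds 11 promoter windows of 300 bases for the 7 genes, from 250 bases before to 50 after each transcript start. Prlr has 3, Esr1 and Greb1 have 2 each and the others 1. The windows were searched on both strands for motifs of the factors of the axis. The full palindrome GGTCANNNTGACC of the oestrogen receptor is in none of the 11, and in 0.07% of the 32851 windows of all genes. Its single arm TGACC is in 4 of the 11, in Esr1, Foxa1 and both Greb1 windows, and in 40.5% of all windows. The forkhead core TGTTTAC is in 2, of Foxa1 and Prlr, and in 3.65% of all. The STAT motif TTCNNNGAA is in 2, of Prlr and Esr1, and in 8.30% of all, and the arm TGTTCT of the progesterone receptor element is in 1, of Prlr, and in 19.0% of all. No match overlaps another within a window. They are letters in a window, not measured sites, and no deposited file measures binding. The stretches of 60 bases around 4 of them are shown because they hold a STAT, a forkhead and an oestrogen receptor motif in windows of Prlr and Esr1, the receptors counted most steadily, and of Foxa1 and Greb1. They are written in the sense of the gene with the match in capitals. In Foxa1 the forkhead core lies on the opposite strand and reads as its reverse complement. The Prlr window (chr15:10223770-10223829, plus strand, match 110 to 102 bases before the start) and the Esr1 window (chr10:4709944-4710003, plus strand, 188 to 180 before) hold the same 9 letters. The Foxa1 window is chr12:57546220-57546279 (minus strand, 141 to 135 before) and the Greb1 window chr12:16800943-16801002 (minus strand, 88 to 84 before).
Prlr: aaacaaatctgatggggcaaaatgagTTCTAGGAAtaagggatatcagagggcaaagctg
Esr1: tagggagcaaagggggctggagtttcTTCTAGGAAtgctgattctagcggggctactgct
Foxa1: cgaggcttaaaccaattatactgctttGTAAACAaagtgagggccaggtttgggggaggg
Greb1: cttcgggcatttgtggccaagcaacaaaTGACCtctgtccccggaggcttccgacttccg

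Total counts per library ran from 2688611 to 19585351 and detected genes from 10258 to 17667, with hyperplasia 22, metastasis 42 and adenoma 51 under 11000. Levels are counts per 1000000 (CPM) on library sizes scaled by the trimmed mean of M values. A library without a count still allows up to 3 counts, which is 0.130 to 0.856 CPM depending on the library and covers counting error only. The luminal identity of the regions was checked first, by the summed level of 8 luminal markers, among them Krt8, Krt18 and Epcam. It was 1095 to 1789 CPM in normal gland and 1389 to 4448 CPM in the other stages. Every one of the 8 was counted in each stage. Over all libraries, the sum of 8 basal markers was 1.73 to 397 CPM. That of 6 receptor-negative luminal markers was 1378 to 19564 CPM. The summed level of 6 fibroblast markers was 554 to 2806 CPM in normal gland and 12.6 to 2234 CPM in the other stages, and that of 6 adipocyte markers 80.2 to 699 CPM and 0 to 94.8 CPM. Metastases held 367 to 4419 CPM of 5 lung epithelium markers, against at most 10.9 CPM in any other library. Reads of neighbouring cells are thus part of these values, and their part in the results was not tested. In such bulk regions, fewer hormone-sensing cells and less RNA per cell cannot be told apart.

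Prlr was the most abundant gene of the axis per kilobase (9.76 CPM per kilobase, against 3.41 for Esr1) and the only one of the 7 counted in all 32 libraries. Its gene lies on chr15:10177238-10349190, and its product is the cytokine receptor through which prolactin activates STAT5. Its mean over all libraries was 149.6 CPM. In normal gland Prlr stood at 36.9 CPM in normal 18, 169 in normal 28 and 78.0 in normal 30. The 5 hyperplasia libraries had 94.0 CPM (21), 4.44 (22), 106 (33), 163 (44) and 222 (46). Hyperplasia 22 was thus far below its group, on a library with the fewest detected genes of all. The lowest, median and highest values were 105, 173 and 483 CPM in adenoma, 44.1, 120.4 and 249 CPM in carcinoma and 62.5, 106 and 315 CPM in metastasis. Every adenoma exceeded 100 CPM, and the groups overlapped in every pair of stages compared. Stage means were 94.7 ± 67.7 CPM (SD, n = 3), 118 ± 81.4 (n = 5), 217 ± 124 (n = 8), 138 ± 65.1 (n = 9) and 133 ± 86.3 (n = 7). The highest value, in adenoma 51, and the second highest, 315 CPM in metastasis 42, also came from libraries of few detected genes. Without them the means were 179 CPM in adenoma and 103 CPM in metastasis.

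Esr1, the oestrogen receptor alpha (chr10:4611989-5005633), was counted in 31 libraries and reached 10 counts in 29. The 3 libraries that did not were adenomas, so every region of the other stages reached 10 counts. Normal 18, 28 and 30 had 32.7, 38.5 and 15.6 CPM. Hyperplasia 21, 22, 33, 44 and 46 had 26.7, 33.1, 5.45, 210.5 and 30.0 CPM, so that only hyperplasia 44, the border region, stood above the normal range. The lowest, median and highest values were 0, 15.9 and 296 CPM in adenoma, 8.58, 19.3 and 88.8 CPM in carcinoma and 17.6, 36.1 and 109 CPM in metastasis. Adenoma held both ends of the range of the study. Adenoma 50, a region outside the tumour, had the highest of all 32 libraries (296 CPM from 2613 counts). The 3 lowest were also adenomas, with no count in adenoma 48, 0.741 CPM in adenoma 36 and 0.856 CPM in adenoma 51, although the same libraries had 105, 307 and 483 CPM of Prlr. All 9 carcinomas lay between 8.58 and 88.8 CPM and all 7 metastases between 17.6 and 109 CPM. Stage means were 28.9 ± 11.9 CPM (SD, n = 3), 61.1 ± 84.2 (n = 5), 56.4 ± 101 (n = 8), 28.6 ± 25.1 (n = 9) and 55.9 ± 37.9 (n = 7), all overlapping. Without hyperplasia 44 the hyperplasia mean was 23.8 CPM, and without adenoma 50 the adenoma mean was 22.2 CPM, so 1 library set each of these means.

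**Figure D1:**
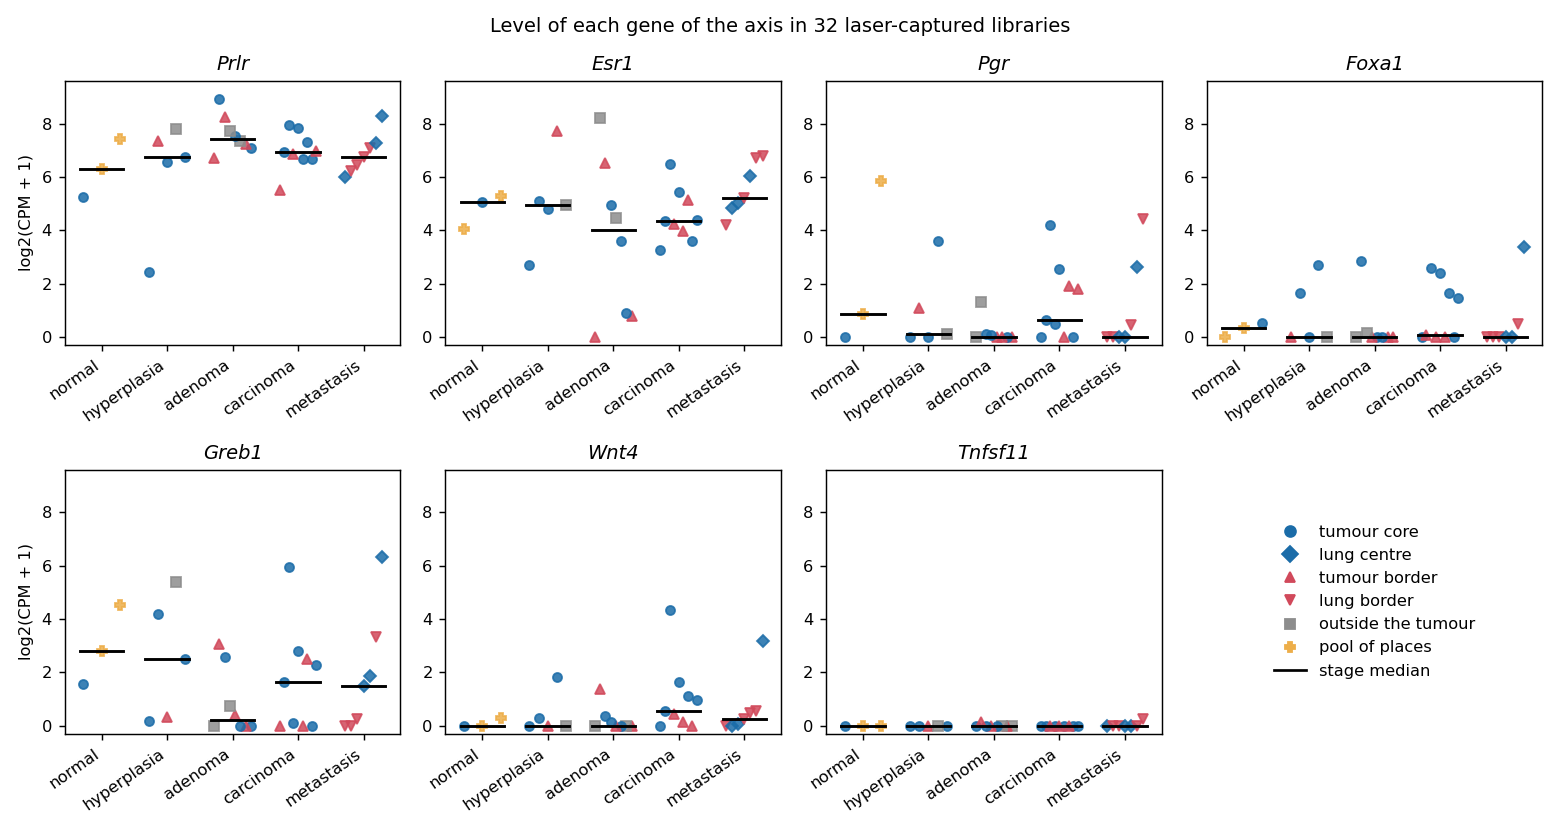
Level of the 7 genes as log2(CPM + 1) in each of 32 libraries, by stage (x axis), with 1 symbol per library, its shape and colour giving the position of the region and a line at the stage median. Prlr is high in nearly every library and Esr1 is present in most, but at or near 0 in adenoma 36, 48 and 51. Pgr, Foxa1, Greb1 and Wnt4 are at or near 0 in many libraries and high in a few, and Tnfsf11 is at 0 in 30.

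The progesterone receptor gene Pgr (chr9:8898900-8968611), itself an oestrogen-induced gene, was counted in 17 libraries and reached 10 counts in 9. Normal 28, a pool, held the highest value, 56.8 CPM from 211 counts, while normal 30 had 0.821 CPM and normal 18 none. That 1 library made 45.2% of the summed level over the study. Hyperplasia 33 had 11.1 CPM, hyperplasia 44 1.10 and hyperplasia 46 0.0823, and hyperplasia 21 and 22 had no count. Adenoma was the stage with least Pgr: 5 of 8 libraries had no count, adenoma 24 and 25 had a single count each, and adenoma 50, with the highest Esr1, had 1.47 CPM. In carcinoma, 6 of 9 libraries had a count, led by carcinoma 54 (17.4 CPM), carcinoma 06 (4.79), carcinoma 39 (2.75) and carcinoma 08 (2.48). In metastasis, 4 of 7 had none, metastasis 58 had 20.3 CPM, metastasis 02 5.08 and metastasis 56 0.365. Outside adenoma, Pgr thus stood above 10 CPM in 1 region of each stage beside regions without any count, and all stages overlapped. Stage means were 19.2, 2.46, 0.203, 3.16 and 3.68 CPM in order of stage, and 0.410, 0.295, 0.0215, 1.37 and 0.908 CPM without the highest library of each stage.

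Foxa1 (chr12:57540628-57548029), the pioneer factor of the oestrogen receptor, was counted in 13 libraries, with 10 counts or more in 8. Normal 18 and 28 had 0.431 and 0.269 CPM, from 5 and 1 counts, and normal 30 none. Hyperplasia 21 and 33 had 5.42 and 2.09 CPM and the other 3 hyperplasias no count. Among adenomas only adenoma 24 reached 10 counts, with 6.25 CPM. Carcinoma 07, 38, 06 and 54 had 5.03, 4.23, 2.12 and 1.77 CPM, and metastasis 02 had the highest value of the study, 9.27 CPM from 175 counts. Esr1 reached 10 counts in all 8 of these libraries, and also in 21 without that much Foxa1. The annotation places Foxa1 on top of part of Ttc6. Of the 8 libraries, 4 also had 10 or more Ttc6 counts, and metastasis 02 had none. No source used here gives the strand setting of the counting, so reads of these overlapping genes may not be fully separated.

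Greb1 (chr12:16670615-16801394), a cofactor of the oestrogen receptor and among its best-known induced genes, was counted in 23 libraries and reached 10 counts in 18. Normal 18, 28 and 30 had 1.98, 22.1 and 5.95 CPM. Hyperplasia 21, 22, 33, 44 and 46 had 4.62, 0.114, 17.2, 0.244 and 40.8 CPM, with a count in every library of both stages. Adenoma was again low, with a lowest, median and highest level of 0, 0.159 and 7.37 CPM, and 4 of its 8 libraries had no count. Carcinoma had 0, 2.14 and 61.6 CPM and metastasis 0, 1.80 and 79.4 CPM. The extremes, carcinoma 38 and metastasis 42, made 78.7% and 85.3% of the summed level of their stages. Without them the stage means were 2.09 in place of 8.70 CPM and 2.28 in place of 13.3 CPM, and those of normal gland, hyperplasia and adenoma were 10.00, 12.6 and 1.66 CPM. The 2 regions with most Esr1, adenoma 50 and hyperplasia 44, had 0 and 0.244 CPM of Greb1. Receptor and target transcripts were therefore not high in the same regions there.

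The paracrine ligands had the lowest mean levels of the axis in CPM per kilobase. Tnfsf11 (RANKL, chr14:78277446-78308043), through which progesterone drives side branching, gave 3 counts in the whole study, 1 in adenoma 36 and 2 in metastasis 57. Over all libraries this is 0.00933 CPM, with an exact Poisson 95% interval of 0.00192 to 0.0273 CPM. A library without a count allows at most its own floor of 3 counts, so 1 CPM of Tnfsf11 would be expected to give more than 3 counts in each of the 32. Its receptor Tnfrsf11a (RANK) was counted in all 32 libraries, with means of 36.1 CPM in normal, 33.3 CPM in hyperplasia, 48.8 CPM in adenoma, 30.8 CPM in carcinoma and 23.2 CPM in metastasis. The soluble decoy receptor Tnfrsf11b (osteoprotegerin) was counted in 18, with means of 4.37, 0.445, 2.39, 4.27 and 0.641 CPM in the same order. Wnt4 (chr4:137277635-137299501), the other progesterone-induced signal, was counted in 18 libraries but reached 10 counts in 5. These were carcinoma 54 (19.1 CPM), metastasis 27 (7.94), hyperplasia 33 (2.51), adenoma 36 (1.59) and carcinoma 37 (1.19). In normal gland a single count was found, in normal 30. Lowest, median and highest levels were 0, 0 and 1.59 CPM in adenoma, 0, 0.452 and 19.1 CPM in carcinoma and 0, 0.182 and 7.94 CPM in metastasis, and the 4 other hyperplasias had at most 0.228 CPM. Carcinoma 54 alone made 50.1% of the summed Wnt4 level, and it was also the carcinoma with most Pgr.

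**Figure D2:**
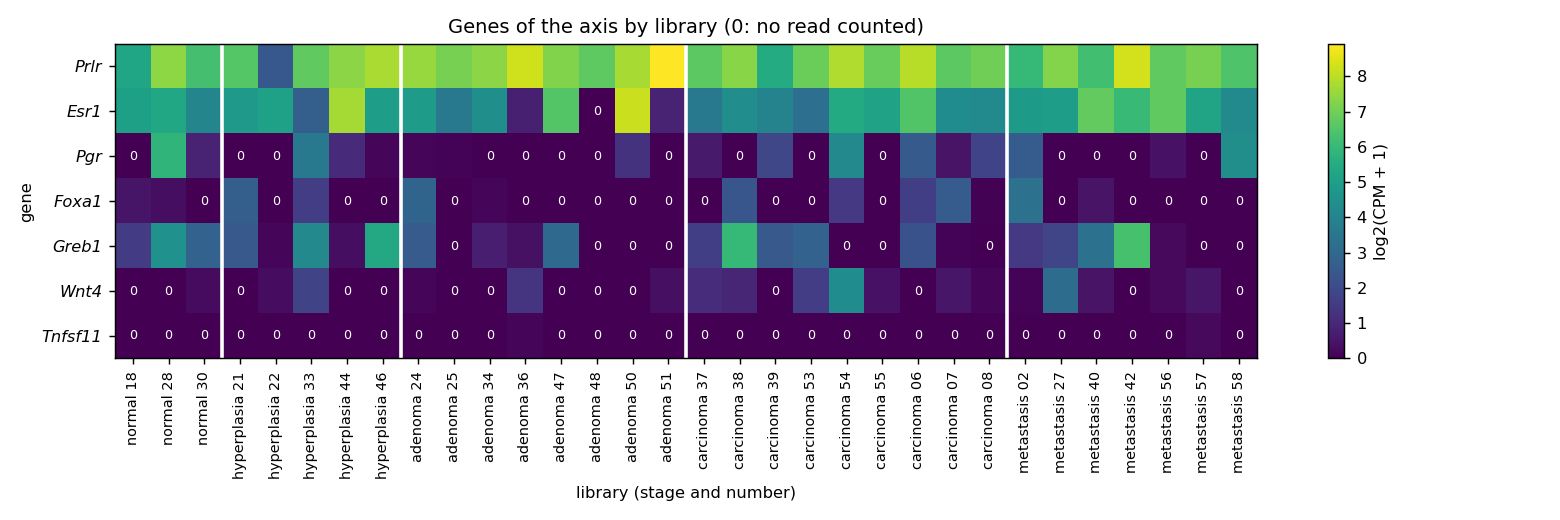
Level of the 7 genes (rows) in the 32 libraries (columns, ordered by stage and separated by white lines) as log2(CPM + 1), with 0 marking a library without a count. The Prlr and Esr1 rows are filled nearly throughout, while the high entries of Pgr, Foxa1, Greb1 and Wnt4 fall in few columns of each stage.

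Compared per kilobase of annotated exon, the mean levels kept the order Prlr, Esr1, Greb1, Pgr, Foxa1, Wnt4 and Tnfsf11, at 9.76, 3.41, 0.906, 0.460, 0.352, 0.284 and 0.00404 CPM per kilobase. The neighbours Pgr, Foxa1 and Wnt4 are not separated beyond their spread, since each had no count in 14 or more libraries. The fitted dispersion of Prlr was 0.458, against a median of 2.69 over genes tested, 1.22 for Esr1, and 4.39, 6.13, 6.59 and 9.98 for Greb1, Wnt4, Pgr and Foxa1. Among gene IDs of like mean level, the number of libraries with a count lay between the 10th and the 90th percentile for 6 of the 7 genes, and that of Wnt4, 18, was above the 90th percentile of 17.

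**Figure D3:**
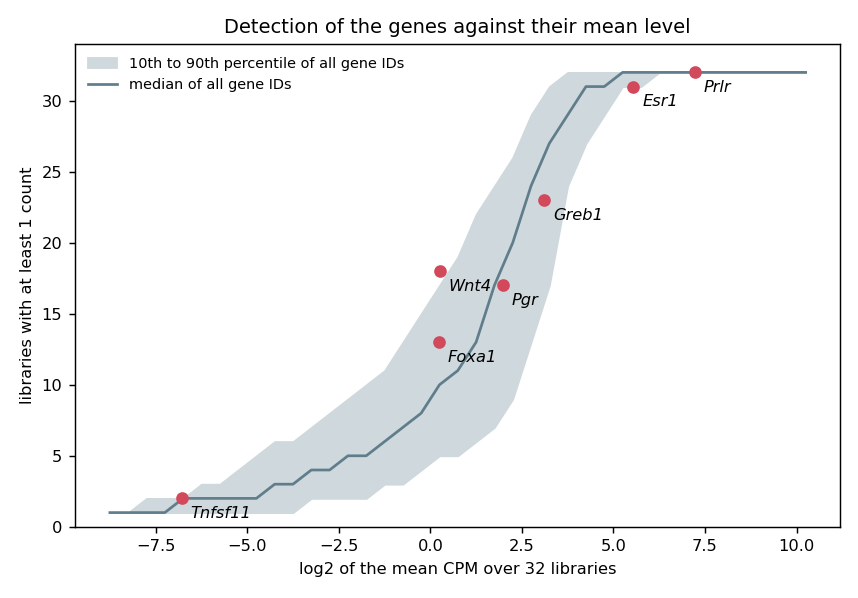
Number of libraries with at least 1 count (y axis, of 32) against the log2 of the mean CPM (x axis) for the 7 genes (red points) and for all gene IDs (line, median, and band, 10th to 90th percentile, in steps of mean level holding at least 20 gene IDs). Greb1 with 23 libraries and Pgr with 17 lie inside the band, Wnt4 with 18 just above it, and Esr1 with 31 at its lower edge.

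None of the 6 genes tested differed between stages by edgeR's quasi-likelihood test at a Benjamini-Hochberg adjusted p of 0.05. Over the 5 stages, 3.58% of 19907 genes passed and 0 of the 6 did. None of the 6 had an unadjusted p under 0.05, which 20.9% of all genes tested had. With DESeq2 or limma voom none passed in any stage comparison either. The adjusted p over the 5 stages by edgeR was 0.399 for Pgr, 0.567 for Wnt4, 0.590 for Prlr, 0.787 for Greb1, 0.861 for Esr1 and 0.970 for Foxa1. Without normal 18, 28 or 30 the test called 1614, 1092 or 1328 genes in place of 712, and still none of the 6. These p-values treat regions that share animals as independent and may be too small. In the steps between single stages the background was sparser by edgeR: 0% of genes passed between hyperplasia and normal gland, adenoma and hyperplasia, and carcinoma and adenoma, 0.00502% between carcinoma and normal gland and 0.0151% between metastasis and carcinoma. DESeq2 itself called 177 to 609 genes in these steps, and none of the 6. Over all alternatives, some values of Foxa1, Wnt4, Pgr and Greb1 had no adjusted p and so could not pass. With DESeq2 size factors the median log2 difference of all genes was -0.35 in place of 0 between hyperplasia and normal gland. It was -0.31 in place of 0.10 between carcinoma and normal gland. The calls for these 6 genes did not change.

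The 95% intervals of the fit were narrowest for Prlr, and they treat regions that share animals as independent. Its log2 difference was 0.32 between hyperplasia and normal gland (95% interval -1.07 to 1.71), 0.88 between adenoma and hyperplasia (-0.22 to 1.99), -0.65 between carcinoma and adenoma (-1.57 to 0.26) and -0.06 between metastasis and carcinoma (-1.01 to 0.89). The sign of the first turned with DESeq2 size factors (-0.25), without normal 18 (-0.06) and without hyperplasia 46 (-0.20). The sign of the last turned with DESeq2 size factors (0.09) and without any 1 of carcinoma 06 or 54 or metastasis 02, 40, 56 or 58 (up to 0.10, without carcinoma 06). Esr1 had differences of 1.08 (-1.53 to 3.69), -0.12 (-2.07 to 1.83), -0.98 (-2.65 to 0.69) and 0.97 (-0.75 to 2.69) in the same order. The second turned without hyperplasia 44 (1.24) or any 1 of adenoma 25, 34, 36, 48 and 51 (0.01 to 0.13). Without hyperplasia 44 the first was -0.28, and without adenoma 50 the third was 0.26. Pgr had the widest steps in the fit, -2.97 (-8.20 to 2.27) from normal gland to hyperplasia, -3.49 (-7.66 to 0.67) from hyperplasia to adenoma and 3.86 (-0.11 to 7.84) from adenoma to carcinoma, the last with the smallest adjusted p of any gene of the axis between adjacent stages, 0.419. Without normal 28 the first of these was 2.57, so its direction rests on that pool. The second was -0.46 without hyperplasia 33 and -6.15 without adenoma 50, and the third ran from 2.67 without carcinoma 54 to 6.38 without adenoma 50. For Greb1 the differences were -2.93 (-6.59 to 0.74) from hyperplasia to adenoma and 2.40 (-0.93 to 5.72) from adenoma to carcinoma. The second was 0.33 without carcinoma 38. The Wnt4 difference was 3.39 (-0.45 to 7.23) between carcinoma and adenoma, and 1.32 without carcinoma 54. Against normal gland, where it had 1 count, pooled Wnt4 in carcinoma stood at a ratio of 70.3 with a counting interval of 12.5 to 2786 that leaves out the spread between regions. Of the 368 carcinoma counts, 324 came from carcinoma 54, and the fitted log2 difference of 5.09 (adjusted p = 0.687) was 3.02 without that library. Foxa1 differed by 0.87 (-2.95 to 4.69) between carcinoma and adenoma, and by 5.65 without adenoma 24.

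**Figure D4:**
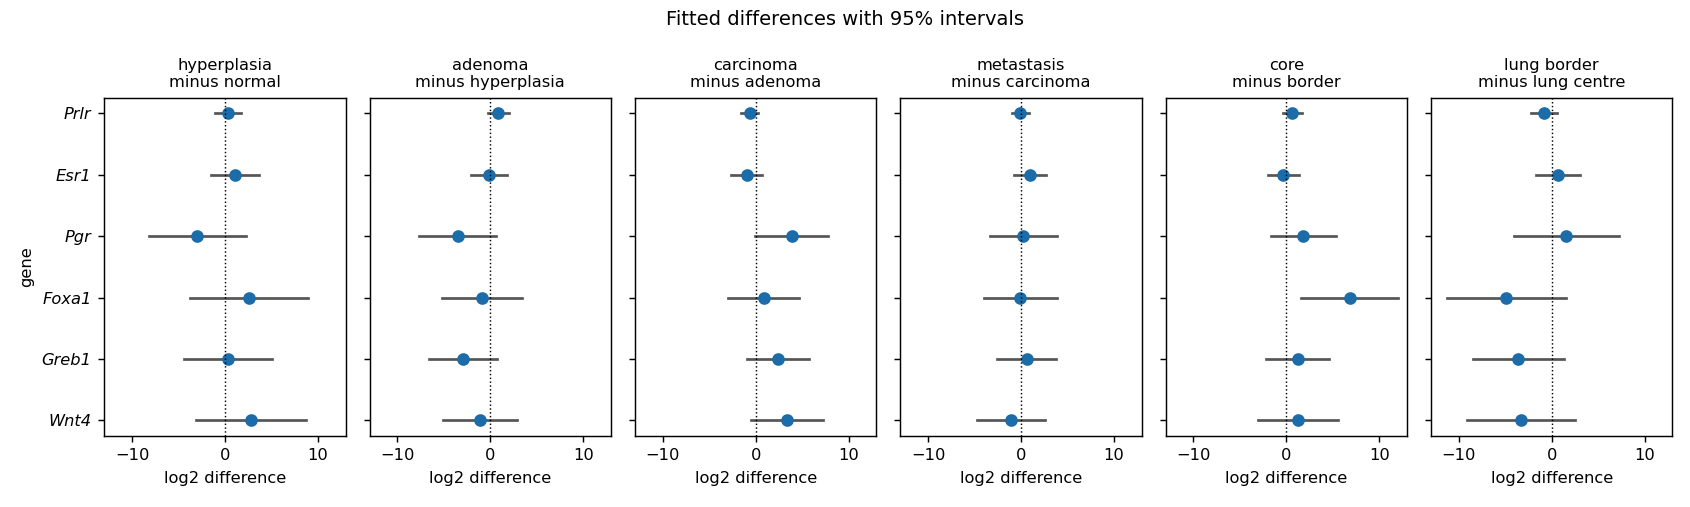
Fitted log2 difference (point) and its 95% interval (line) for the 6 genes tested, in 4 comparisons of stages and 2 of positions (panels). Intervals span 0 for all of them except Foxa1 between core and border, whose adjusted p was 0.4656, and those of Prlr are the narrowest.

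By position, Foxa1 counts came almost wholly from regions labelled tumour core or lung centre. The second label gives the place in the lung, not in a lesion, and metastasis 02 there gave 175 of the 485 counts. Of the 8 libraries with 10 or more Foxa1 counts, 7 lay in the tumour core and 1 in the lung centre. None lay at a border, outside the tumour or in a pool. Of the 32 libraries, 16 were taken in the core or the lung centre. These labels were joined as a description only, and the joined group was not tested. Of the 3 lung centre libraries, 1 reached 10 counts. The 3 adenoma cores had 6.25, 0 and 0 CPM and the 3 adenoma borders no count. The 6 carcinoma cores had 2.12, 5.03, 0, 4.23, 0 and 1.77 CPM, and of the 3 carcinoma borders carcinoma 08 had 1 count (0.0434 CPM) and the others none. Core and border overlapped, since 4 of the 9 cores also had no count. Pooled, 228 counts in 9 cores stood against 1 count in 6 borders, a ratio of 146 with a counting interval of 25.9 to 5776 that ignores the spread between regions. The fit over regions gave a log2 difference of 6.80 (1.56 to 12.04), which depends on the near absence of counts at the border. It did not pass after adjustment (edgeR adjusted p = 0.4656, 0.385 by DESeq2 and 0.629 by limma voom). These p-values take regions that share animals as independent and may be too small. Without adenoma 24 the difference was 3.10. Of 22676 genes, 0.00441% passed between core and border, and 0 of the 6 genes did. Foxa1 was the only one of the 6 with an unadjusted p under 0.05, which 9.71% of the 22676 genes also had.

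Of the other genes, Prlr was counted at every position. It had means of 267 CPM in adenoma cores and 187 at adenoma borders (n = 3 and 3), and of 160.2 in carcinoma cores and 94.6 at carcinoma borders (n = 6 and 3), a fitted log2 difference of 0.64 (-0.38 to 1.66, adjusted p = 0.802). Esr1 ran in opposite directions, 13.9 against 30.9 CPM in adenoma and 31.7 against 22.3 in carcinoma. Adenoma 47 alone set the adenoma border mean: without it the fitted difference between core and border was 2.90 in place of -0.31. The change of the position difference with stage was not shown (interaction adjusted p = 0.952, with 0% of genes passing that test). Esr1 outside the adenomas was 20.8 CPM in adenoma 34 and 296 CPM in adenoma 50. Pgr had no count at the 3 adenoma borders and 3.86 against 1.74 CPM in carcinoma cores and borders, with a core mean of 1.15 CPM, below that of the border, without carcinoma 54. By edgeR its difference was 1.81 (adjusted p = 0.893), and by limma voom it did not pass either, while DESeq2 gave 8.78 with an adjusted p of 0.00491 and an interaction of -15.56 with an adjusted p of 0.0213, both computed against the adenoma borders, which had no Pgr count. Greb1 stood at 12.3 CPM in carcinoma cores and 1.55 at the borders, with 5 of 6 cores and 1 of 3 borders counted, and 2.40 CPM in cores without carcinoma 38. In adenoma Greb1 was the other way round, 1.63 CPM in cores and 2.56 at borders (log2 -0.61 in adenoma alone), and without adenoma 24 the difference over both stages was -2.33 in place of 1.20. Wnt4 was counted in 5 of 6 carcinoma cores (3.96 CPM, or 0.930 CPM without carcinoma 54) and 2 of 3 borders (0.141). In adenoma it too was lower in cores, 0.125 CPM against 0.530 CPM at borders (log2 -2.11 in adenoma alone), where adenoma 36 held all border counts. The adjusted p of the core and border difference was 1 for both Greb1 and Wnt4.

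In metastases, Foxa1 had 3.09 CPM in the centre, from metastasis 02 alone, and 0.1002 CPM at the border, from 2 counts in metastasis 40. Greb1 was counted in all 3 centre libraries (1.80, 2.67 and 79.4 CPM in metastasis 02, 27 and 42) and in 2 of 4 at the border (9.02 and 0.182 CPM in metastasis 40 and 56). Esr1 was 67.0 against 41.1 CPM and Prlr 100.3 against 177 CPM at the border and in the centre (n = 4 and 3). Without metastasis 42 the Prlr mean in the centre was 108 CPM, and its fitted log2 difference of border against centre was -0.11 in place of -0.82. None passed by edgeR (adjusted p from 0.613 to 0.926, with no unadjusted p under 0.05), where 0% of 22676 genes did. By DESeq2 or limma voom none of them passed either. Shared animals may make these p-values too small. Foxa1 had the opposite sign, 3.06 in place of -4.88, without metastasis 02.

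**Figure D5:**
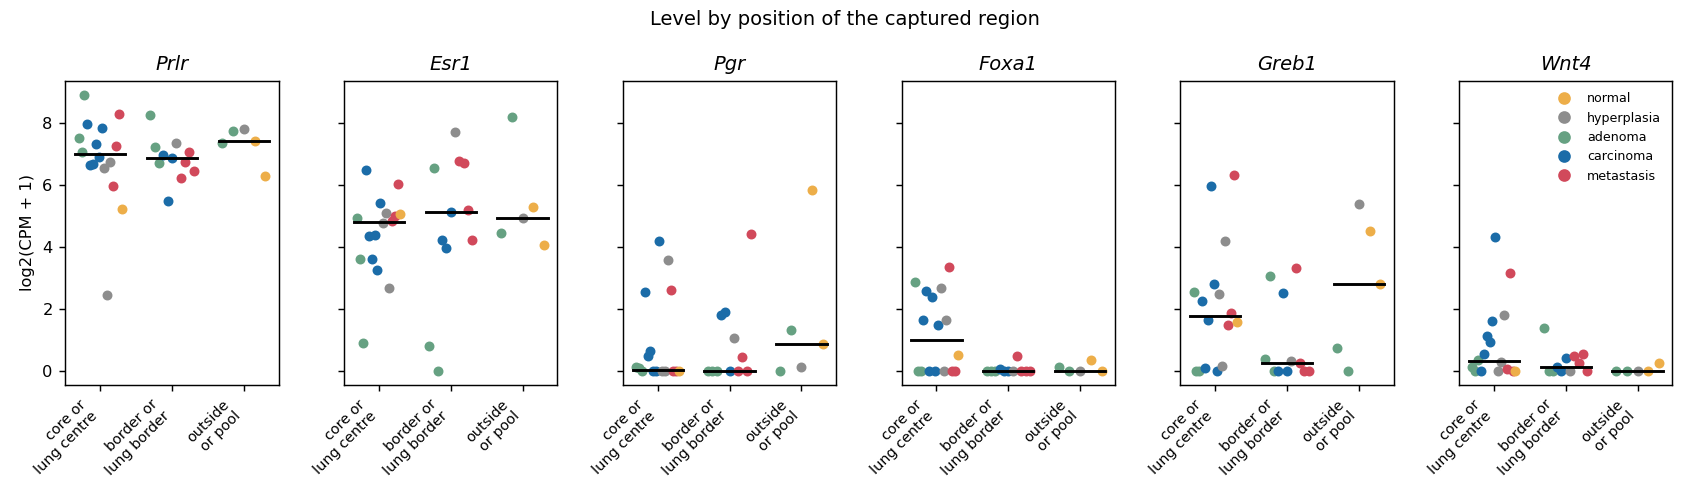
Level of 6 genes as log2(CPM + 1) in each library (points coloured by stage), grouped by position (x axis: tumour core or lung centre, tumour border or lung border, outside the tumour or pool), with a line at the median. Foxa1 is above 1 only among the 16 core and lung centre libraries, while Prlr and Esr1 are present at all positions.

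The levels of the genes of the axis were weakly related to each other from region to region. Over the 15 pairs among the 6 genes, Spearman's rho across the 32 libraries ran from -0.23 (Esr1 with Wnt4) to 0.24 (Foxa1 with Greb1), as a description of libraries that share animals and differ in depth. Esr1 and Prlr both reached 10 counts in 29 libraries, with a rho of 0.16, or 0.26 without the 3 libraries of fewest genes. Esr1 and its target Greb1 had a rho of 0.10 and Esr1 and Pgr 0.06. Of the 9 libraries with 10 or more Pgr counts, 5 also had that much Greb1, against 18 of all 32. Of the 7 genes, 1 reached 10 counts in 2 libraries, 2 in 7, 3 in 12, 4 in 7, 5 in 3 and 6 in 1. That last region was hyperplasia 33, the only one in which Esr1, Pgr, Prlr, Foxa1, Greb1 and Wnt4 all reached 10 counts, with 5.45, 11.1, 106, 2.09, 17.2 and 2.51 CPM. At the other end, adenoma 48 had counts of Prlr alone. Prlr was lower where more genes were detected (rho -0.52, and -0.61 without the 3 libraries), and rho with the luminal marker sum was 0.34. Greb1 had a rho of -0.49 with the luminal sum and -0.46 with the total count. Whether these properties of the libraries set the levels was not tested.

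The receptors and factors that work beside these genes were for the most part counted in every stage. Gata3, which specifies luminal cells, had means of 288 CPM in normal, 425 CPM in hyperplasia, 459.8 CPM in adenoma, 363 CPM in carcinoma and 335 CPM in metastasis, and was counted in every library. Xbp1, a factor of secretory cells linked to the oestrogen receptor, had the highest mean CPM of its list, not corrected for length, with means of 826, 1054, 1088, 1015 and 1257 CPM. Spdef, an Ets factor of luminal secretory cells, had the smallest p of the 15 luminal factors and cofactors, with 2.06 and 6.65 CPM in normal gland and hyperplasia and 63.2, 56.9 and 36.8 in adenoma, carcinoma and metastasis, but did not pass (adjusted p = 0.0889, and 0.0453 without the filter). Cited1, a coactivator of hormone-sensing cells, was counted in 12 libraries, with 209.9 CPM in hyperplasia 22 and at most 0.453 CPM in adenoma. Elf5, the factor of receptor-negative alveolar cells and itself a prolactin target, had means of 139, 329, 274, 206 and 323 CPM. Among the other steroid receptors, Esr2, the second oestrogen receptor, had means of 27.4, 2.93, 25.7, 6.82 and 5.55 CPM and Nr3c2, the mineralocorticoid receptor, 21.6, 1.86, 0.813, 0.753 and 10.8 CPM. Pgrmc2, a membrane progestin-binding protein, had the highest mean CPM of that list, not corrected for length, with means of 59.3, 49.3, 108, 76.0 and 98.8 CPM. Of the 8 steroid receptors and binding proteins, 0 passed over the 5 stages by edgeR (0 at an unadjusted p under 0.05), 0 by DESeq2 and 1 by limma voom, which was Nr3c2 (adjusted p = 0.000888). Nr3c2 also passed by edgeR without carcinoma 39 (0.0351). Of the 15 luminal factors, 0 passed by edgeR (4 unadjusted), 0 by DESeq2 and 0 by limma voom. Of all 19907 genes, 20.9% had an unadjusted p under 0.05 in this edgeR test. DESeq2 called 313 genes over the stages and limma voom 354. By edgeR none of either list passed in a comparison of single stages or positions. Limma voom called 2 of the 8 between carcinoma and normal gland, where it called 316 genes. DESeq2 called 1 of the 8 in each of core against border, lung border against centre and the change of core against border with stage. It called 1 of the 15 in each of adenoma against hyperplasia, carcinoma against normal gland and that change. In these comparisons DESeq2 called 177 to 761 genes.

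Of the genes downstream of the receptors, 2 passed the test over the 5 stages, both of the progesterone list. Of 17 oestrogen-induced genes in the table, 0 passed by edgeR (5 unadjusted), 1 by DESeq2 and 1 by limma voom. Over all genes tested, 20.9% had an unadjusted p under 0.05 by edgeR. DESeq2 called 313 genes and limma voom 354. Between carcinoma and adenoma 13 of the 17 were higher, with a median log2 difference of 0.47 against 0.02 for all genes tested, and between adenoma and hyperplasia 11 of 17 were lower (median -0.38 against 0.06). Between hyperplasia and normal gland 10 of 17 were lower (median -0.65 against 0), between carcinoma and normal gland 13 (median -0.49 against 0.10), and between metastasis and carcinoma 9 (median -0.12 against -0.01). None of the 17 passed in any of these steps by edgeR. DESeq2 called 1 between hyperplasia and normal gland and 1 between adenoma and hyperplasia, where it called 489 and 609 genes. Areg, the amphiregulin growth factor through which oestrogen acts on neighbouring cells, was counted in 1 of 3 normal libraries (16.2 CPM in normal 30), in none of 5 hyperplasias, in 2 of 8 adenomas, in 7 of 9 carcinomas and in 3 of 7 metastases, with an adjusted p of 0.114 over the stages. Tff1, a classic oestrogen-induced peptide, was found in 2 normal libraries, 1 adenoma and 2 metastases and in no hyperplasia or carcinoma (adjusted p = 0.0578, and 0.0494, 0.0293 or 0.0425 without normal 30, adenoma 47 or metastasis 58, 0.0313 without the filter and 0.0484 with detected genes as a covariate). Ctsd, a lysosomal protease with the highest mean CPM of the list, not corrected for length, had means of 2268, 985, 778, 1216 and 1007 CPM (adjusted p = 0.124). It passed by DESeq2 (0.0345) and limma voom (0.0217), and by edgeR with DESeq2 size factors (0.0349), without the filter (0.0346) and with detected genes as a covariate (0.0302). Among 17 progesterone, RANK and WNT genes, 2 passed over the 5 stages, where 3.58% of all genes did. By DESeq2 0 of the 17 passed and by limma voom 1. Rspo1, a secreted enhancer of WNT signalling, was counted in all 3 normal libraries (5.32 ± 4.25 CPM) and in 4 of the other 29, with no count in hyperplasia (adjusted p = 0.0408). That call was lost with limma voom (0.0734), with detected genes as a covariate (0.0937), without the 3 libraries of fewest genes (0.0808) and without any 1 of normal 18 and 28, hyperplasia 21 and 44 and metastasis 02, 27 and 58 (up to 0.0725, without normal 28). Calca, the calcitonin gene, passed (adjusted p = 0.0157) on 279 CPM in carcinoma 39 and at most 3.08 CPM elsewhere, and not with limma voom (0.799) or the covariate (0.279). Without carcinoma 39, or without adenoma 24, too few counts were left to test it. The WNT coreceptor Lrp6 had the highest mean CPM of that list, not corrected for length, with means of 73.6, 104, 77.1, 68.6 and 69.0 CPM. Of 13 prolactin and growth hormone signalling genes, 0 passed by edgeR (4 unadjusted), 1 by DESeq2 and 1 by limma voom, in both cases Igf1. Stat5a, which carries the prolactin signal to the nucleus, had means of 27.7, 77.6, 50.8, 39.7 and 93.5 CPM, the transcription factor Nfib 733, 1338, 1222, 1063 and 995 CPM, and the growth factor Igf1 59.7, 5.78, 9.80, 3.79 and 1.80 CPM (adjusted p = 0.112), beside fibroblast and adipocyte marker sums whose medians were also highest in normal gland, and their part in it was not tested. All of these tests share the limit that regions share animals.

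The genes whose levels were most like each of the genes counted in at least 16 libraries were found by Spearman's rho of log2(CPM + 1) over the 32 libraries, among 14354 genes. For Prlr they included Smc4 (0.70) and Micu2 (0.64), with Lmf1 least alike (-0.68). For Esr1 they were Flvcr2 (0.62), Rai1 (0.62) and Plscr3 (0.60), with Sppl2a at -0.64, and for Greb1 Lrrc9 (0.76), Kcnh8 (0.76) and 6820431F20Rik (0.72), with Mir703 at -0.79. For Pgr they were Tmem45a2 (0.71), Rnf135 (0.63) and Zik1 (0.62), with Crat at -0.64, and for Wnt4 Thtpa (0.57), Zfp335 (0.57) and Dtnb (0.56), with Syt11 at -0.66. No gene of the axis is among them. Without the 3 libraries of fewest genes 1 of the 3 stayed for each of Prlr, Esr1, Greb1 and Pgr and 0 for Wnt4, and by Pearson's r 0 of the 3 for any, so these neighbours depend on the measure and on the libraries included.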

How the data were processed

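Laser-captured regions of mouse mammary tumours and lung metastases gave 32 libraries, amplified from polyadenylated RNA by a Smart-seq2 protocol and read as 1 table of gene counts. The deposited values are raw, whole-number counts per NCBI gene ID, not normalized. STAR and the build mm10 are named in the submitters' processing notes. Genes were counted by a method, annotation and strand setting not given in the sources used here. Total counts of 2688611 to 19585351 per library, with 5.20 to 78.9% in 1 gene ID without a symbol, set the precision. No molecular identifiers are described, so intervals and floors cover counting error only.

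Symbols came from RefSeq for 24374 of 24454 gene IDs. Stages and positions were compared with edgeR 4.0.16 (R 4.3.3; TMM, filterByExpr with a minimum count of 10, quasi-likelihood test) over all 32 libraries, with Benjamini-Hochberg adjustment over all genes tested and a threshold of 0.05. DESeq2 1.42.0, limma 3.58.1 (voom), other scaling, no filter, a detected-gene covariate, and leaving out libraries were alternatives. The fits were tested on simulated data with regions drawn as independent. Changes were planted only in genes of higher mean level than Pgr, Foxa1, Greb1 and Wnt4, so this does not bear on finding changes in those genes. The genes and lists were chosen with earlier results of these data known. Of each list the genes named are those that passed, or else the one of smallest p and, in every list, the one of highest mean CPM, plus 9 partners; 2 genes these rules name are not reported here. Ca12, an oestrogen-induced gene, was not used here. Likeness used Spearman's rho of log2(CPM + 1), pseudocount 1, over genes counted in at least 16 libraries.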

Additional observations from a re-analysis of the deposited data

Results flagged for a closer look

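In 11 of 26 groups of 4 to 10 libraries with any count, the highest or lowest library lay farther from its neighbour, relative to the range of the group, than Dixon's 95% critical value. For normally distributed values about 1 in 20 groups would by chance. That rate does not hold for groups made mostly of libraries without a count. There a single library with a count is marked whatever its level, so 11 cannot be set against that rate. Values are log2(CPM + 1).

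For Prlr the library set apart was hyperplasia 22, the lowest of its stage at 2.44, where the next had 6.57. In this library Esr1 was counted 291 times, and its number of detected genes was the lowest of the study. For Pgr it was adenoma 50, the highest of its stage at 1.30. Foxa1 stood apart in adenoma 24 at 2.86 and in metastasis 02 at 3.36. Greb1 stood apart in carcinoma 38 at 5.97.

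The ligand Wnt4 had such a library in 4 stages, hyperplasia 33 at 1.81, adenoma 36 at 1.37, carcinoma 54 at 4.33 and metastasis 27 at 3.16. Tnfsf11 had one in adenoma 36 at 0.15 and in metastasis 57 at 0.24, from 1 and 2 counts.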

How the results depend on the processing

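None of the 6 genes tested was called in any alternative by edgeR or limma voom, in 32 stage and 22 position fits that each left out 1 library included; DESeq2 called 1, Pgr, between core and border and in its change with stage. The table-wide counts, by edgeR 712 genes over the stages, 0, 0 and 0 for the first 3 steps between stages, 1 for carcinoma against normal gland, 3 for metastasis against carcinoma, 1 for core against border and 0 for the others, depended far more on the tool. The cause was not tested. With DESeq2 size factors in edgeR the counts were 2 for carcinoma against normal gland and 0 for core against border. Without the filter the counts were 3717 for any stage, 2 for carcinoma against normal gland, 5 for metastasis against carcinoma, 3 for core against border, 1 for lung border against centre and 4 for the change of core against border from adenoma to carcinoma. With DESeq2 the counts were 313 for any stage, 489 for hyperplasia against normal gland, 609 for adenoma against hyperplasia, 265 for carcinoma against adenoma, 177 for carcinoma against normal gland, 186 for metastasis against carcinoma, 761 for core against border, 744 for lung border against centre and 704 for the change of core against border from adenoma to carcinoma. With limma voom the counts were 354 for any stage, 105 for hyperplasia against normal gland, 2 for adenoma against hyperplasia, 7 for carcinoma against adenoma, 316 for carcinoma against normal gland, 19 for metastasis against carcinoma, 0 for core against border, 12 for lung border against centre and 1 for the change of core against border from adenoma to carcinoma. With the covariate the counts were 125 for carcinoma against adenoma, 0 for carcinoma against normal gland and 0 for core against border. Without the 3 libraries of fewest genes the counts were 126 for any stage, 2 for carcinoma against normal gland and 0 for core against border. With only the groups compared the counts were 1 for hyperplasia against normal gland, 7 for carcinoma against normal gland and 0 for core against border. In adenoma alone the counts were 0 for core against border. In carcinoma alone the counts were 0 for core against border. With DESeq2 size factors in edgeR the log2 difference changed sign for Prlr -0.25 and Greb1 -0.30 (hyperplasia against normal gland), Prlr -0.029 (carcinoma against normal gland) and Prlr 0.089 (metastasis against carcinoma). With DESeq2 the log2 difference changed sign for Prlr -0.25 and Greb1 -0.30 (hyperplasia against normal gland), Prlr -0.029 (carcinoma against normal gland) and Prlr 0.089 (metastasis against carcinoma). With limma voom the log2 difference changed sign for Greb1 -0.82 (hyperplasia against normal gland), Esr1 1.08 (carcinoma against adenoma), Pgr -0.23 (metastasis against carcinoma), Esr1 2.11 (core against border) and Esr1 -4.06 and Foxa1 0.95 (the change of core against border from adenoma to carcinoma). With the covariate the log2 difference changed sign for Prlr -0.049 and Greb1 -0.11 (hyperplasia against normal gland), Esr1 0.078 (carcinoma against normal gland), Pgr -1.76 and Greb1 -0.46 (metastasis against carcinoma), Pgr -0.039 (lung border against centre) and Pgr 2.13 and Foxa1 2.42 (the change of core against border from adenoma to carcinoma). Without the 3 libraries of fewest genes the log2 difference changed sign for Foxa1 0.14 and Greb1 -1.99 (metastasis against carcinoma) and Greb1 0.080 (lung border against centre). In adenoma alone the log2 difference changed sign for Greb1 -0.61 and Wnt4 -2.11 (core against border). In carcinoma alone the log2 difference changed sign for Esr1 0.51 (core against border).

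Leaving out 1 library at a time gave 479 to 1614 genes for any stage, 0 to 1 genes for carcinoma against adenoma, 0 to 2 genes for carcinoma against normal gland, 0 to 2 genes for core against border and 0 to 2 genes for the change of core against border from adenoma to carcinoma. It changed signs as well. For hyperplasia against normal gland the ranges that crossed 0 were those of Esr1 (-0.28 to 1.34), Pgr (-6.20 to 2.57), Prlr (-0.20 to 1.04), Greb1 (-0.97 to 1.67) and Wnt4 (-0.40 to 5.49). For adenoma against hyperplasia the ranges that crossed 0 were those of Esr1 (-1.37 to 1.24), Foxa1 (-5.69 to 0.62) and Wnt4 (-3.33 to 1.89). For carcinoma against adenoma the ranges that crossed 0 were those of Esr1 (-1.42 to 0.26). For carcinoma against normal gland the ranges that crossed 0 were those of Esr1 (-0.46 to 0.24), Pgr (-3.79 to 2.94) and Greb1 (-2.26 to 1.14). For metastasis against carcinoma the ranges that crossed 0 were those of Pgr (-1.76 to 1.42), Prlr (-0.43 to 0.10), Foxa1 (-4.29 to 0.44), Greb1 (-1.97 to 2.67) and Wnt4 (-3.79 to 1.02). For core against border the ranges that crossed 0 were those of Esr1 (-0.91 to 2.90) and Greb1 (-2.33 to 4.68). For lung border against centre the ranges that crossed 0 were those of Pgr (-3.69 to 8.66), Foxa1 (-7.97 to 3.06), Greb1 (-8.84 to 0.12) and Wnt4 (-3.89 to 2.60). For the change of core against border from adenoma to carcinoma the ranges that crossed 0 were those of Esr1 (-4.73 to 2.83), Prlr (-0.16 to 1.01), Foxa1 (-1.84 to 6.20) and Greb1 (-0.27 to 10.75). Between core and border Prlr stayed at 0.28 to 0.88 and Foxa1 at 3.10 to 7.38. No adjusted p was given for 25 values, by DESeq2 or because a gene failed the filter in an alternative fit. Foxa1 and Wnt4 each had 325 alternatives with one, Pgr 326 and Greb1 330, against 331 for Esr1 and Prlr. No paired analysis was possible because the labels do not tie regions to animals. Tnfsf11, Wnt4, Foxa1 and Pgr had no count in 14 or more libraries, and the part of depth in this was not tested.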
